A study of Mus musculus with 15 samples.

Results

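The genes described here make the non-collagen part of the extracellular matrix of mouse periprostatic fat, together with the enzymes that process and crosslink its collagen. They were taken by gene symbol, and all 56 symbols were found among the 23995 genes of the deposited files. The set holds 8 small leucine-rich proteoglycans, 2 large proteoglycans, 11 matricellular proteins, 4 fibronectin-like or other adhesive proteins, 12 elastic fibre and microfibril proteins, 7 laminins and nidogens, and 12 genes of collagen processing and crosslinking. RNA from the fat around the prostate of male C57BL/6J mice was sequenced, with 5 mice in each of 3 groups.

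HFD estradiol mice ate a diet with 60% of its energy as fat and carried a 0.25 mg pellet of 17β-estradiol made to release for 60 days. HFD placebo mice ate the same diet and carried a pellet without estradiol. LFD mice ate a diet with 10% of its energy as fat and had no pellet implanted. Feeding started when mice were 6 weeks old, implantation followed 12 weeks later, and fat was collected at 26 weeks of age after a further 8 weeks. HFD estradiol and HFD placebo mice therefore differ by the hormone, while diet and pellet implantation change together between either of these groups and LFD mice and cannot be told apart.

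Matrix in fat surrounds each adipocyte with a basement membrane of laminins, nidogens and perlecan, set in an interstitial network of fibrillar collagen, fibronectin and elastic microfibrils. Small leucine-rich proteoglycans bind collagen fibrils and set their width and spacing, while matricellular proteins such as periostin and the thrombospondins act on cells and on assembly more than as structural elements. Lysyl hydroxylases, lysyl oxidases and transglutaminase modify lysine and glutamine side chains and so join the fibres, and expanding fat in obesity is known for accumulating such material.

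Levels are given as scaled FPKM, which is the deposited value per length and per library total, divided by a factor for each library that removes differences in overall scale. Differences are given as log2(scaled FPKM + 1) in the first group minus that in the second, with the standard error (SE). They were tested with limma over the 5615 genes that reached 1 on this scale in 5 or more libraries, and a gene was called at a Benjamini-Hochberg adjusted p below 0.05. Of the 56 genes, 46 passed that filter, and the 10 that did not were Omd, Vcan, Thbs3, Thbs4, Spon2, Tnc, Emilin1, Mfap2, Mfap4 and Loxl3. Spon1 and Plod2 passed it through the HFD estradiol libraries only, in which all 5 were at 1 or more, against no HFD placebo and no LFD library. Thbs2 and Fbln5 passed it through fat-fed libraries only, with no LFD library at 1 or more, and Fmod with no HFD estradiol library at 1 or more. Inclusion of these 5 genes therefore depended on the groups in which they were high, and counts over the 46 genes describe these genes only.

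The sum of deposited FPKM ran from 34449 to 105910 over the 15 libraries and the scaling factors from 0.481 to 3.23. For a transcript of 2 kb, a level of 1 was estimated to rest on 36.7 to 96.6 fragments in HFD estradiol libraries, 34.9 to 221 in HFD placebo libraries and 20.6 to 40.2 in LFD libraries. Libraries ran on 2 sequencing lanes, with all 5 HFD estradiol libraries on lane 6, HFD placebo libraries 4 and 5 on lane 6 and 1 to 3 on lane 5, and all 5 LFD libraries on lane 5. HFD placebo 4 and 5 also had the largest sums of FPKM. Adipocyte markers were abundant in all libraries, with the summed scaled FPKM of 8 genes between 1590 and 2263 in HFD estradiol, 838 and 1421 in HFD placebo and 1571 and 2545 in LFD. Markers of prostate epithelium were at or near 0 except in LFD 5. There the sum of 8 genes was 127, against 0.0642 to 0.656 in the other libraries. Skeletal muscle markers, 6 genes, summed to 24.3 in LFD 4, 13.8 in HFD estradiol 3 and 5.79 in LFD 3. In the other libraries they summed to 0.349 to 2.16.

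Between HFD estradiol and HFD placebo mice, the genes moved in both directions. Spon1, Plod2, Ogn, Tgm2, Lama4, Thbs2, Lamb1, Pcolce2 and Nid1 were higher with estradiol, and Bgn, Postn, Prelp, Lox, Sparc, Pcolce, Hspg2, Serpinh1, Aspn, Plod3, Loxl2, Plod1 and P4hb were lower. In bulk tissue fewer cells of a type and less RNA per cell cannot be told apart. The 9 higher calls were 19.6% of the 46 tested genes, against 14.3% of all 5615 tested genes, and the 13 lower calls were 28.3%, against 16.0%. The median difference over the 46 genes was -0.02, and that over all tested genes was 0.01.

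HFD placebo mice, set against LFD mice, had 23 of the 46 genes higher and 2 lower. The higher share was 50%, against 21.3% of all tested genes, and the lower share was 4.35%, against 22.0%. The median difference was 0.36 over the 46 genes and -0.01 over all tested genes. HFD estradiol mice, set against LFD mice, had 15 genes higher and 1 lower, or 32.6% and 2.17%, against 3.95% and 3.74% of all tested genes. Here the median was 0.28 over the 46 genes and -0.01 over all tested genes. The 3 comparisons share libraries, so each gene's values are set side by side below and no likeness between comparisons was computed.

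These splits depend on the scaling of the libraries. Of all called genes, 47.2% were higher in HFD estradiol minus HFD placebo, against 4.71% with FPKM as deposited and 31.3% once FPKM were brought to 1 common sum. In HFD placebo minus LFD the shares were 49.2%, 99.4% and 91.5%, and in HFD estradiol minus LFD 51.4%, 100% and 95.0%. With FPKM as deposited the median of all tested genes moved to -0.27 in HFD estradiol minus HFD placebo and the only calls among the 46 genes were Spon1 and Plod2, both higher, against 0.232% of all tested genes higher. In HFD placebo minus LFD that median moved to 0.77, and 37 of the 46 were higher with a median of 1.22 (53.6% of all tested genes). In HFD estradiol minus LFD it moved to 0.49, and 9 were higher with a median of 0.90 (0.695% of all tested genes). None of the 46 genes was called lower in these fits, and 9, 10 and 5 of them changed sign in the 3 comparisons in this order, so directions below hold relative to the median gene. With FPKM brought to 1 common sum, 13 of the 22 calls in HFD estradiol minus HFD placebo held, 4 higher and 9 lower, against 4.61% and 10.1% of all tested genes. Those lost were Lama4, Lamb1, Nid1, Pcolce2, Thbs2, Loxl2, P4hb, Plod1 and Serpinh1. Mir6236 alone made up 10.2% to 53.1% of the sum of deposited FPKM over the 15 libraries. Its range was 15.7% to 49.9% in HFD estradiol, 10.2% to 47.9% in HFD placebo and 33.1% to 53.1% in LFD libraries. Calls under a common sum therefore depend on the level of that gene as well. That scaling added, in HFD placebo minus LFD, Aspn, Efemp2, Fbn1, Lamc1, Tgm2 and Tnxb as higher and lost Fmod and Lama4. In HFD estradiol minus LFD it added Dcn, Efemp2, Fbln1, Fbn1, Lama2, Mfap5, P4hb, Prelp and Tnxb and lost Fmod. Of all 5615 tested genes, 2104 were higher in HFD placebo minus LFD under that scaling, against 1197 with scaled FPKM. In HFD estradiol minus LFD 554 were higher, against 222. A call named below without its scaling is that of the scaled FPKM.

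**Figure D1:**
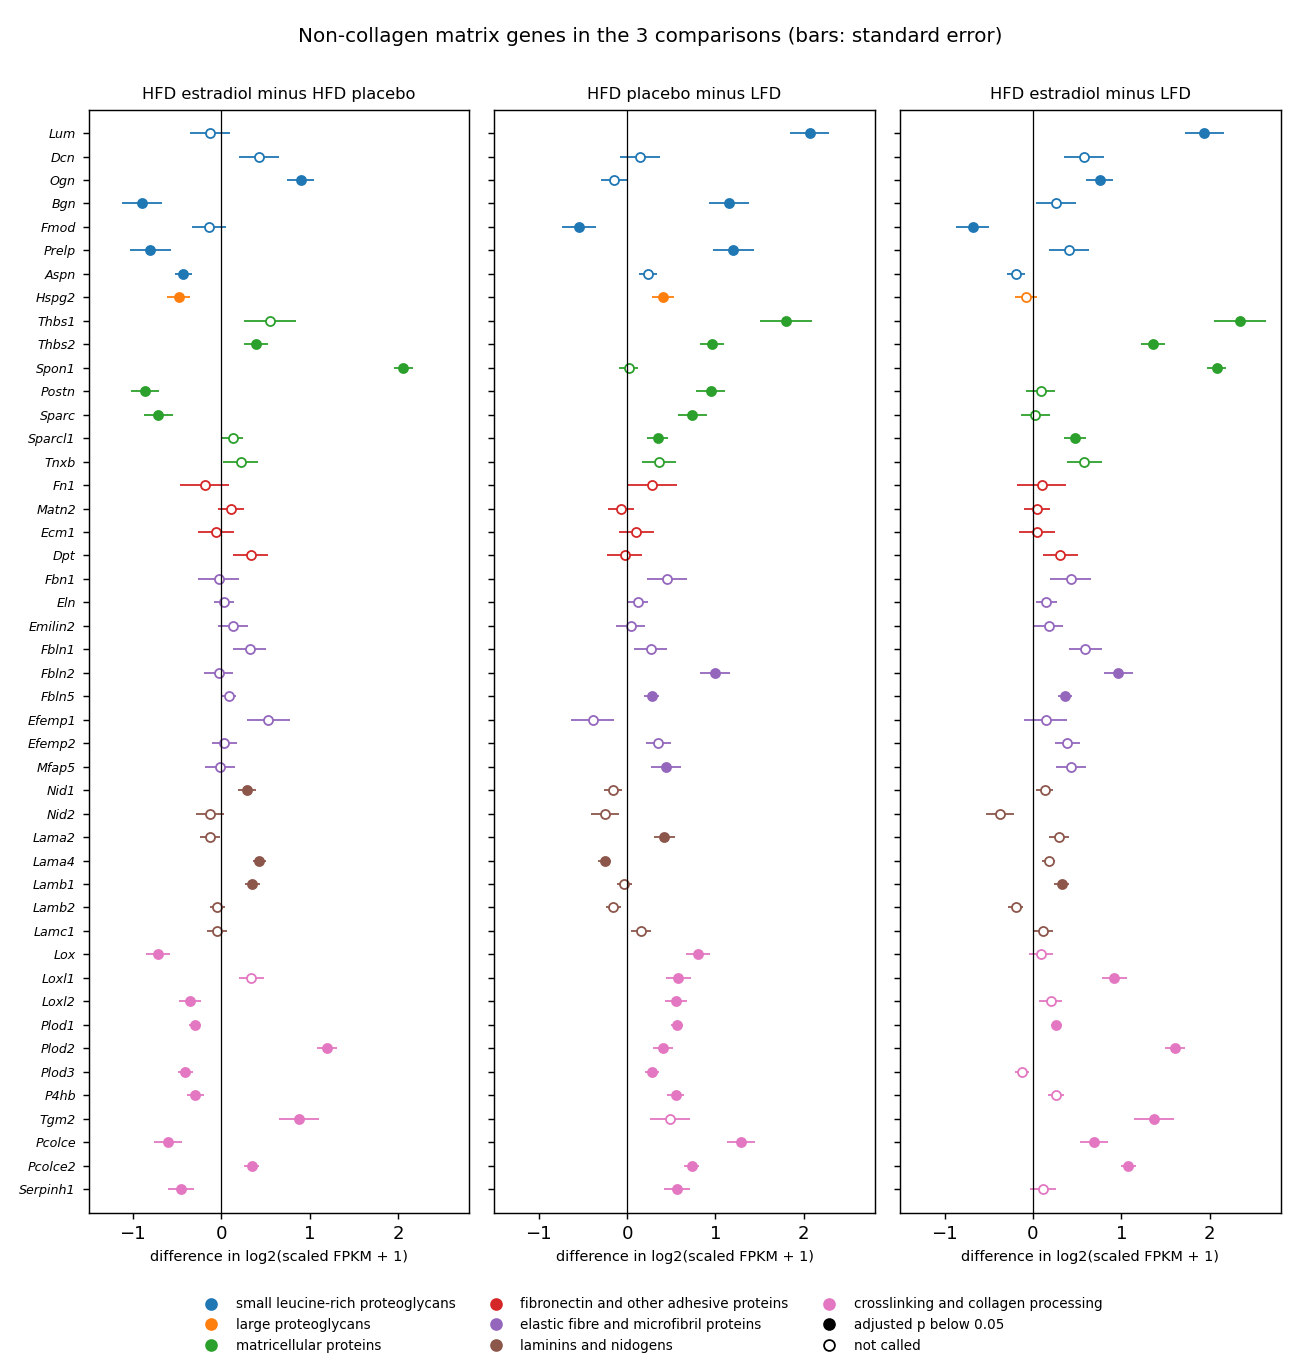
Difference in log2(scaled FPKM + 1) of each of the 46 tested genes in HFD estradiol minus HFD placebo, HFD placebo minus LFD, and HFD estradiol minus LFD, with bars for the standard error and filled points for an adjusted p below 0.05. Spon1 and Plod2 lie farthest to the right in HFD estradiol minus HFD placebo at 2.06 and 1.20, while Lum at 2.07 lies farthest in HFD placebo minus LFD.

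Promoter sequences bear on these opposite movements only as a description. Those of Ogn, higher with estradiol, and of Postn and Sparc, both lower, are shown as examples and not as typical of their direction. They come from RefSeq (GRCm38.p6), run from 250 bases before to 50 after the transcript start, and are printed on the gene's own strand. Capitals mark GGTCA, or TGACC where the match lies on the other strand, the 5-letter core of the estrogen response element. The Ogn promoter lies at chr13:49607765-49608064 on the plus strand, that of Postn at chr3:54359017-54359316 on the plus strand, and that of Sparc at chr11:55420031-55420330 on the minus strand. Postn has a second start, whose promoter at chr3:54360857-54361156 holds no core and is not shown.
Ogn: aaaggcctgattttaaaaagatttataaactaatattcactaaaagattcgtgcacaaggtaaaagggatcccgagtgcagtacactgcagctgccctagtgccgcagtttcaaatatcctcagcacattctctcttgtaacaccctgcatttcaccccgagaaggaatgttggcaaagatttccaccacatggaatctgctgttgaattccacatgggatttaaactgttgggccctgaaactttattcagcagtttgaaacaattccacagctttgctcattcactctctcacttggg
Postn: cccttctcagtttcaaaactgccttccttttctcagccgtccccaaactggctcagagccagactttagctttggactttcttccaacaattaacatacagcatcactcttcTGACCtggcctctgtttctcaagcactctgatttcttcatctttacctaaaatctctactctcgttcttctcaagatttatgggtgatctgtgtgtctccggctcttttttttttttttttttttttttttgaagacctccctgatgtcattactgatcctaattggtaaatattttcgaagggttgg
Sparc: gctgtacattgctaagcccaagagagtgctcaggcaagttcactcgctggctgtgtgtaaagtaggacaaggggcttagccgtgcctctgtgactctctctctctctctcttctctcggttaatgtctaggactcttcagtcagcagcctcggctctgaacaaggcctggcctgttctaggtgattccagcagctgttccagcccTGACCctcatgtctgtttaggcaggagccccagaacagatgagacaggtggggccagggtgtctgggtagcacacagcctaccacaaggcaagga
Promoters were matched for 36 of the 56 genes, with 44 promoters between them because a gene can have several starts. The core was found on either strand in 12 of these 44, while 40.5% of all 32851 promoters hold it. The full palindrome GGTCANNNTGACC was in none of the 44 and in 0.07% of all promoters. Of the genes higher with estradiol 5 were matched (Lamb1, Nid1, Ogn, Pcolce2 and Thbs2), and 0 of their 5 promoters held the core. Of the genes lower with estradiol 11 were matched, and 5 of their 12 promoters held it (those of Hspg2, Pcolce, Postn, Prelp and Sparc). No core was found for Aspn, Bgn, P4hb, Plod1, Plod3 or Serpinh1. The matches are letters in a window and say nothing of binding.

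Among the small leucine-rich proteoglycans, 1 of the 7 tested was higher and 3 were lower in HFD estradiol than in HFD placebo, or 14.3% and 42.9%, against 14.3% and 16.0% of all tested genes. Osteoglycin (Ogn), which binds collagen and regulates fibril formation, had 13.7, 13.6, 12.9, 10.1 and 12.3 scaled FPKM in HFD estradiol libraries 1 to 5. It had 6.42, 8.04, 4.88, 5.42 and 6.73 in HFD placebo libraries, and 8.09, 4.49, 9.21, 6.89 and 7.07 in LFD libraries. Every HFD estradiol library was above every library of both other groups. Ogn averaged 12.5 ± 1.47 scaled FPKM in HFD estradiol and 6.30 ± 1.23 in HFD placebo mice (SD, n = 5 each), a difference of 0.90 ± 0.15 (SE) with a limma adjusted p of 0.00035. Against LFD mice, at 7.15 ± 1.75 (SD, n = 5), the difference in HFD estradiol was 0.75 ± 0.15 (limma adjusted p = 0.00698). With lane as a term that difference was 0.81 and not called (limma adjusted p = 0.119).

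Biglycan (Bgn), a proteoglycan that carries dermatan or chondroitin sulfate and binds collagen, was highest in HFD placebo mice. It had 7.86, 4.63, 7.73, 6.68 and 8.08 scaled FPKM in HFD estradiol libraries, against 21, 15.2, 13.7, 8.10 and 13 in HFD placebo libraries and 6.74, 3.57, 8.67, 5.66 and 4.48 in LFD libraries. No HFD estradiol library reached the lowest HFD placebo library, HFD placebo 4, although the gap to it was narrow. Bgn fell by 0.89 ± 0.23 with estradiol (limma adjusted p = 0.00664) and was 1.15 ± 0.23 higher in HFD placebo than in LFD mice (limma adjusted p = 0.00071). With lane as a further term the estradiol difference of Bgn was -0.52 and no longer called (limma adjusted p = 0.242).

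Prelp, a basement membrane anchor, had 13.5, 10.2, 16.4, 11.6 and 27.8 scaled FPKM in HFD estradiol libraries, against 27.4, 31.6, 20.3, 29.7 and 26.0 in HFD placebo libraries and 12.2, 6.68, 13, 12.2 and 12.4 in LFD libraries. HFD estradiol 5 lay among the HFD placebo libraries, and the other four lay below all of them. The difference was -0.80 ± 0.23 in HFD estradiol minus HFD placebo (limma adjusted p = 0.014). The difference of HFD placebo from LFD was 1.20 ± 0.23, with no overlap (limma adjusted p = 0.00052). Asporin (Aspn), a small proteoglycan that binds collagen, had 1.22 to 1.51 in HFD estradiol and 1.67 to 2.94 in HFD placebo libraries, a difference of -0.43 ± 0.10 without overlap (limma adjusted p = 0.00358). It had 1.3 to 2.08 in LFD libraries and was not called against them in either fat-fed group, although HFD placebo minus LFD was called without HFD placebo 3 or LFD 3 or 4 (limma adjusted p = 0.0226, 0.0362 and 0.0346). The Prelp call did not hold with lane as a term (-0.85, limma adjusted p = 0.0876) or without HFD placebo 4 and 5 (-0.76, limma adjusted p = 0.0508), whereas Aspn was called in both.

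Lumican (Lum), a keratan sulfate proteoglycan that limits fibril thickness, was high in both fat-fed groups. It had 11.2, 8.02, 8.19, 3.65 and 5.63 scaled FPKM in HFD estradiol, 9.66, 8.43, 6.93, 4.87 and 9.34 in HFD placebo, and 1.32, 0.599, 1.12, 0.958 and 1.43 in LFD libraries. No fat-fed library overlapped an LFD library, and the 2 fat-fed groups overlapped each other widely. The difference from LFD was 1.94 ± 0.22 in HFD estradiol (limma adjusted p = 8.9e-05) and 2.07 ± 0.22 in HFD placebo mice (limma adjusted p = 3.4e-06). Between HFD estradiol and HFD placebo it was -0.13 ± 0.22 (limma adjusted p = 0.711). In ratios of means Lum was 6.76-fold higher in HFD estradiol than in LFD mice and 7.23-fold higher in HFD placebo than in LFD mice.

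Decorin (Dcn), which binds collagen fibrils and TGF-β and had the highest mean of all 56 genes, 85.1 scaled FPKM over the 15 libraries, was called in none of the comparisons. It had 78.2 to 144 in HFD estradiol, 51.3 to 101 in HFD placebo and 46.4 to 80.2 in LFD libraries, and the difference of HFD estradiol from LFD was 0.58 ± 0.22 (limma adjusted p = 0.137). Fibromodulin (Fmod), which guides fibril assembly, was the only 1 of the 8 tested proteoglycans called lower than in LFD mice in either fat-fed group. It had 0.406 to 0.837 in HFD estradiol, 0.233 to 1.25 in HFD placebo and 0.753 to 2.69 in LFD libraries, with overlap in both comparisons. Fmod passed the filter with no HFD estradiol library at 1 or more, so its inclusion depended on the other groups. The difference was -0.68 ± 0.19 in HFD estradiol minus LFD (limma adjusted p = 0.04) and -0.55 ± 0.19 in HFD placebo minus LFD (limma adjusted p = 0.0303), and with FPKM as deposited HFD placebo minus LFD was 0.01. The Fmod call against LFD was lost in HFD placebo without HFD placebo 3 or 4 or without LFD 1, 3 or 5 (limma adjusted p from 0.0596 to 0.0807), and in HFD estradiol without any 1 of its own 5 libraries or without LFD 1, 3 or 5 (0.0578 to 0.0962). Osteomodulin (Omd), a keratan sulfate proteoglycan of bone, was below the filter at 0 to 0.407 scaled FPKM over all libraries.

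Perlecan (Hspg2), the heparan sulfate proteoglycan of basement membranes, was the only large proteoglycan above the filter, since versican (Vcan), the hyaluronan-binding one, had 0.471 to 1.96 scaled FPKM over all libraries. It had 5.73, 4.5, 4.22, 5.11 and 5.57 scaled FPKM in HFD estradiol, 10.2, 7.96, 6.36, 5.96 and 7.01 in HFD placebo and 4.68, 4.47, 6.15, 6.15 and 5.37 in LFD libraries. HFD estradiol libraries all lay below the HFD placebo libraries and within or near the range of LFD libraries. The difference was -0.48 ± 0.13 in HFD estradiol minus HFD placebo (limma adjusted p = 0.00846) and 0.40 ± 0.13 in HFD placebo minus LFD (limma adjusted p = 0.0167). The estradiol difference was -0.32 with lane as a term and not called (limma adjusted p = 0.227).

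Of the 46 tested genes, the largest difference between HFD estradiol and HFD placebo was that of 1 matricellular gene, Spon1. It passed the filter through HFD estradiol libraries only, so its inclusion among the tested genes depended on that group. F-spondin (Spon1), a secreted protein with thrombospondin repeats known for guiding axons, had 3.45, 6.33, 4.60, 5.77 and 3.97 scaled FPKM in HFD estradiol libraries. It had 0.432, 0.419, 0.331, 0.311 and 0.381 in HFD placebo libraries and 0.483, 0.251, 0.422, 0.324 and 0.315 in LFD libraries. The lowest HFD estradiol library was above 3, and no other library reached 0.5. The means were 4.83 ± 1.21 in HFD estradiol and 0.375 ± 0.053 in HFD placebo mice (SD, n = 5 each), a ratio of 12.9. The log2 difference was 2.06 ± 0.11 (limma adjusted p = 1.7e-08). Against LFD mice, at 0.359 ± 0.092 (SD, n = 5), it was 2.08 ± 0.11 (limma adjusted p = 1.5e-08), and HFD placebo minus LFD gave 0.02 ± 0.11 (limma adjusted p = 0.902).

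Spon1 remained called in HFD estradiol minus HFD placebo with lane as a term (2.09 ± 0.15, limma adjusted p = 3.03e-06) and within lane 6, where 5 HFD estradiol libraries met HFD placebo 4 and 5 (2.09, limma adjusted p = 0.00176). The gene lies at chr7:113765998-114043375 (GRCm38.p6). Its relative Spon2, also a secreted spondin, stayed below the filter. Spon2 had 0.631, 1.23, 1.25, 1.01 and 0.619 scaled FPKM in HFD estradiol, 0.374, 0.739, 0.355, 0.280 and 0.368 in HFD placebo and 0.240, 0.170, 0.187, 0.455 and 0.126 in LFD libraries. HFD estradiol libraries overlapped HFD placebo libraries through HFD placebo 2 and lay above all LFD libraries.

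**Figure D2:**
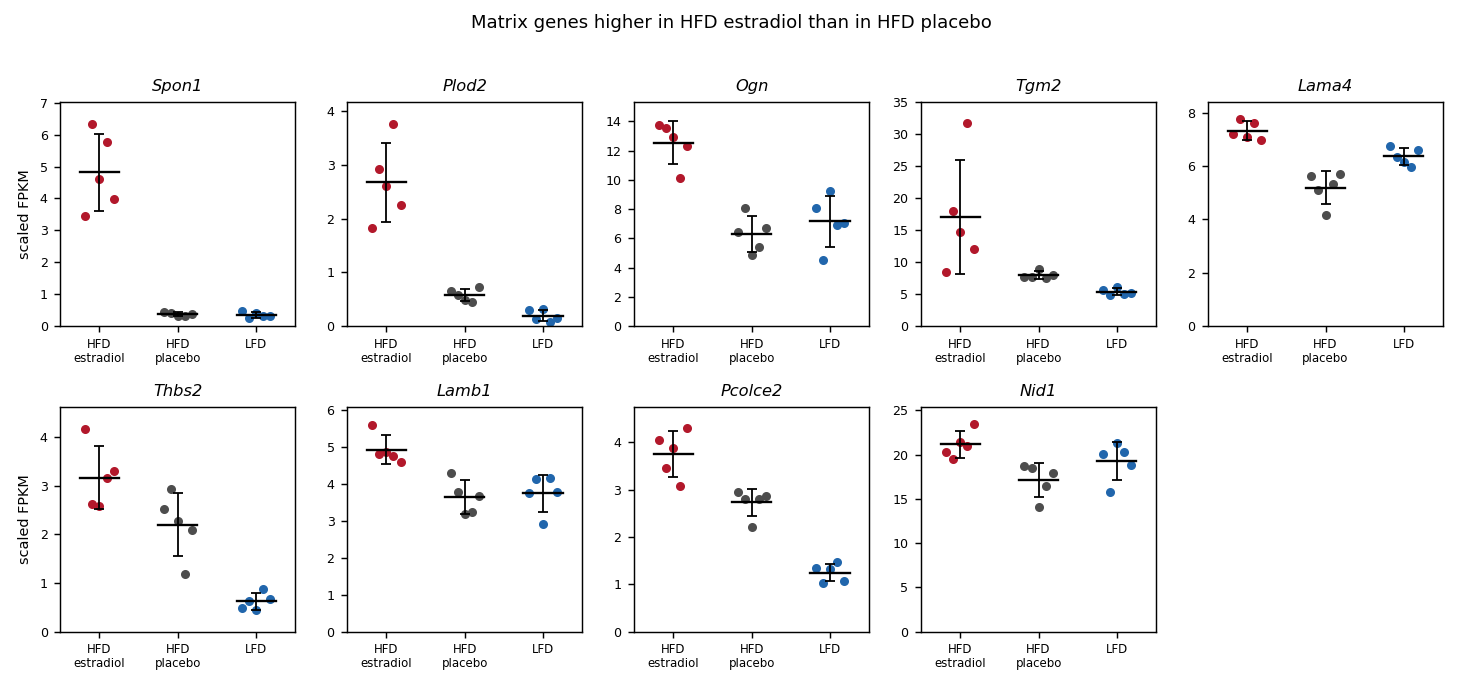
Scaled FPKM in each library for the 9 genes called higher in HFD estradiol than in HFD placebo, with lines for the group mean and SD (n = 5 mice a group). HFD estradiol libraries of Spon1 lie between 3.45 and 6.33 and all other libraries at 0.483 or less, while Tgm2 spreads from 8.53 to 31.8 among HFD estradiol libraries.

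Periostin (Postn), which binds collagen and promotes its crosslinking, had 7.28, 4.46, 6.58, 6.92 and 7.40 scaled FPKM in HFD estradiol, 17.5, 12.6, 11.3, 10.3 and 11.9 in HFD placebo and 4.63, 6.91, 4.87, 8.40 and 5.90 in LFD libraries. HFD placebo libraries stood above all others, and HFD estradiol libraries overlapped LFD libraries. The difference was -0.86 ± 0.16 in HFD estradiol minus HFD placebo (limma adjusted p = 0.00087), 0.95 ± 0.16 in HFD placebo minus LFD (limma adjusted p = 0.00024) and 0.09 ± 0.16 in HFD estradiol minus LFD (limma adjusted p = 0.803). Postn was still called in HFD estradiol minus HFD placebo with lane as a term (-0.70, limma adjusted p = 0.0435).

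Sparc, a collagen-binding glycoprotein needed for normal fibril assembly, followed the same order at a higher level. It had 49.3, 55.1, 64.3, 56 and 81.9 scaled FPKM in HFD estradiol, 100.2, 96.6, 83.8, 112 and 107 in HFD placebo and 68.9, 40.6, 72.3, 65.5 and 55.1 in LFD libraries. The highest HFD estradiol library, at 81.9, was just under the lowest HFD placebo library, at 83.8. Sparc fell by 0.71 ± 0.16 with estradiol (limma adjusted p = 0.0036) and was 0.74 ± 0.16 higher in HFD placebo than in LFD mice (limma adjusted p = 0.00185). Its relative Sparcl1, which is known for roles at synapses and vessels, had 9.37 to 16.1 in HFD estradiol, 9.91 to 13.3 in HFD placebo and 8.75 to 9.94 in LFD libraries. Sparcl1 was called against LFD in HFD estradiol (0.47 ± 0.12, limma adjusted p = 0.0251) and in HFD placebo (0.35 ± 0.12, limma adjusted p = 0.0303), and not between HFD estradiol and HFD placebo (0.13 ± 0.12, limma adjusted p = 0.457). Against LFD its calls were lost in HFD estradiol without HFD estradiol 1, 2, 3 or 5 or LFD 4 or 5 (limma adjusted p from 0.0516 to 0.0643), and in HFD placebo without HFD placebo 1, 2 or 5 or LFD 4 or 5 (0.0553 to 0.0666).

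Thrombospondins bind cell-surface receptors and restrain vessel growth, and Thbs1 and Thbs2 were both called higher in each fat-fed group than in LFD mice, Thbs2 having passed the filter through fat-fed libraries only. Thbs1, also an activator of latent TGF-β, had 6.29, 7.37, 11.9, 24.6 and 12.2 scaled FPKM in HFD estradiol, 11.4, 9.06, 5.69, 4.27 and 7.96 in HFD placebo and 1.86, 0.784, 1.56, 1.82 and 1.12 in LFD libraries. Every fat-fed library was above every LFD library, and HFD estradiol 4 was the highest of all. The difference from LFD was 2.34 ± 0.29 in HFD estradiol (limma adjusted p = 0.00022) and 1.79 ± 0.29 in HFD placebo mice (limma adjusted p = 0.00015). HFD estradiol minus HFD placebo was 0.55 ± 0.29, with overlap (limma adjusted p = 0.174).

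Thbs2, whose loss in mice gives irregular collagen fibrils, had 4.17, 2.62, 2.59, 3.16 and 3.31 scaled FPKM in HFD estradiol, 2.53, 2.93, 2.28, 1.19 and 2.09 in HFD placebo and 0.488, 0.630, 0.439, 0.869 and 0.679 in LFD libraries. HFD placebo 2 lay among the HFD estradiol libraries, and both fat-fed groups lay above all LFD libraries. The difference from LFD was 1.36 ± 0.14 in HFD estradiol (limma adjusted p = 2.8e-05) and 0.96 ± 0.14 in HFD placebo mice (limma adjusted p = 4.4e-05). Thbs2 was also called in HFD estradiol minus HFD placebo, at 0.39 ± 0.14 (limma adjusted p = 0.0406). That call was lost without HFD placebo 4 and 5 together (0.21, limma adjusted p = 0.21) and without HFD estradiol 1, 4 or 5 or HFD placebo 3, 4 or 5 alone (0.0592 to 0.0989). Tenascin-X (Tnxb), which spaces collagen fibrils, was called in no comparison, although it was without HFD placebo 4 in HFD placebo minus LFD (0.51, limma adjusted p = 0.0322) and without HFD placebo 1 or 4 in HFD estradiol minus LFD (0.58, 0.0371 and 0.0432).

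Of the matricellular genes below the filter, tenascin-C (Tnc), a protein of healing and remodelling tissue, was singled out after its values were seen, as was Spon2. It had 0.328, 0.230, 0.226, 0.236 and 0.300 scaled FPKM in HFD estradiol, 0.650, 0.6, 0.543, 0.640 and 0.519 in HFD placebo and 0.248, 0.230, 0.206, 0.313 and 0.470 in LFD libraries. All HFD placebo libraries were above all others. With the filter removed, limma gave Tnc a difference of -0.33 ± 0.05 in HFD estradiol minus HFD placebo (adjusted p = 0.0006) and Spon2 one of 0.45 ± 0.11 (adjusted p = 0.0133). In that fit of 18880 genes, 8.09% were lower and 5.71% higher. Thbs3 ranged from 0.351 to 1.44 over all libraries, and Thbs4 was listed at 0 in 13 of them.

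Fibronectin and the other adhesive proteins were called in no comparison, 0 of 4 genes in each, and 0 of 4 had a limma unadjusted p under 0.05 in any of them. Of all tested genes 14.3% were higher and 16.0% lower in HFD estradiol minus HFD placebo. The shares were 21.3% and 22.0% in HFD placebo minus LFD, and 3.95% and 3.74% in HFD estradiol minus LFD. Fibronectin (Fn1), which cells bind through integrins, had 14.3 to 23.1 scaled FPKM in HFD estradiol, 8.51 to 31.1 in HFD placebo and 11 to 26.9 in LFD libraries. The spread of the HFD placebo libraries, from replicate 4 at 8.51 to replicate 1 at 31.1, covered the whole of the HFD estradiol range. Its difference was -0.18 ± 0.28 in HFD estradiol minus HFD placebo (limma adjusted p = 0.662). Dermatopontin (Dpt), which binds decorin and aids fibril formation, averaged 33.5 ± 6.90 scaled FPKM in HFD estradiol, 26.9 ± 7.94 in HFD placebo and 26.9 ± 5.54 in LFD mice (SD, n = 5 each), with 0.33 ± 0.20 in HFD estradiol minus HFD placebo (limma adjusted p = 0.222). Matn2 and Ecm1, a matrilin and a secreted glycoprotein, had differences between -0.07 and 0.11 over the 3 comparisons. Without HFD placebo 4, Fn1 was called in HFD placebo minus LFD (0.56, limma adjusted p = 0.0466), and without HFD placebo 4 and 5 together Dpt was called in HFD estradiol minus HFD placebo (0.57, limma adjusted p = 0.0422).

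Of the 9 tested elastic fibre and microfibril genes, limma called 0 in HFD estradiol minus HFD placebo and 1 had an unadjusted p under 0.05. Their differences lay between -0.03 and 0.53, the highest being that of Efemp1, a fibulin (0.53 ± 0.25, limma adjusted p = 0.114). Of all tested genes 14.3% were higher and 16.0% lower in that comparison. In HFD placebo minus LFD 3 of 9 were called higher, or 33.3% against 21.3% of all tested genes, and in HFD estradiol minus LFD 2 of 9, or 22.2% against 3.95%. Both counts include Fbln5, which passed the filter through fat-fed libraries only. Fibulin-2 (Fbln2), which binds fibrillin and basement membrane proteins, had 5.04, 4.69, 5.01, 7.26 and 5.21 scaled FPKM in HFD estradiol, 6.97, 5.96, 4.97, 4.11 and 5.91 in HFD placebo and 2.28, 1.14, 3.14, 2.90 and 2.29 in LFD libraries. Both fat-fed groups lay above all LFD libraries and overlapped each other. The difference from LFD was 0.97 ± 0.16 in HFD estradiol (limma adjusted p = 0.00204) and 1.00 ± 0.16 in HFD placebo (limma adjusted p = 0.00017), against -0.03 ± 0.16 in HFD estradiol minus HFD placebo (limma adjusted p = 0.917).

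Fibulin-5 (Fbln5), which is needed for elastic fibre assembly, had 0.839 to 1.3 scaled FPKM in HFD estradiol, 0.742 to 1.16 in HFD placebo and 0.509 to 0.838 in LFD libraries. The lowest HFD estradiol library, at 0.839, was level with the highest LFD library, at 0.838. The difference from LFD was 0.36 ± 0.08 in HFD estradiol (limma adjusted p = 0.0125) and 0.28 ± 0.08 in HFD placebo (limma adjusted p = 0.0114). Fbln5 passed the filter with no LFD library at 1 or more, so its inclusion among the tested genes depended on the fat-fed groups. With lane as a term its difference of HFD estradiol from LFD was 0.33 and not called (limma adjusted p = 0.224). Mfap5, a microfibril component, had 2.11 to 4.93 in HFD placebo and 1.62 to 2.76 in LFD libraries and was called by a narrow margin (0.44 ± 0.17, limma adjusted p = 0.0489). That call was lost in 10 of 15 fits that left out 1 library, those without HFD estradiol 1, 2 or 3, HFD placebo 1, 2 or 5, or LFD 1, 2, 3 or 5 (limma adjusted p from 0.0516 to 0.132).

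**Figure D3:**
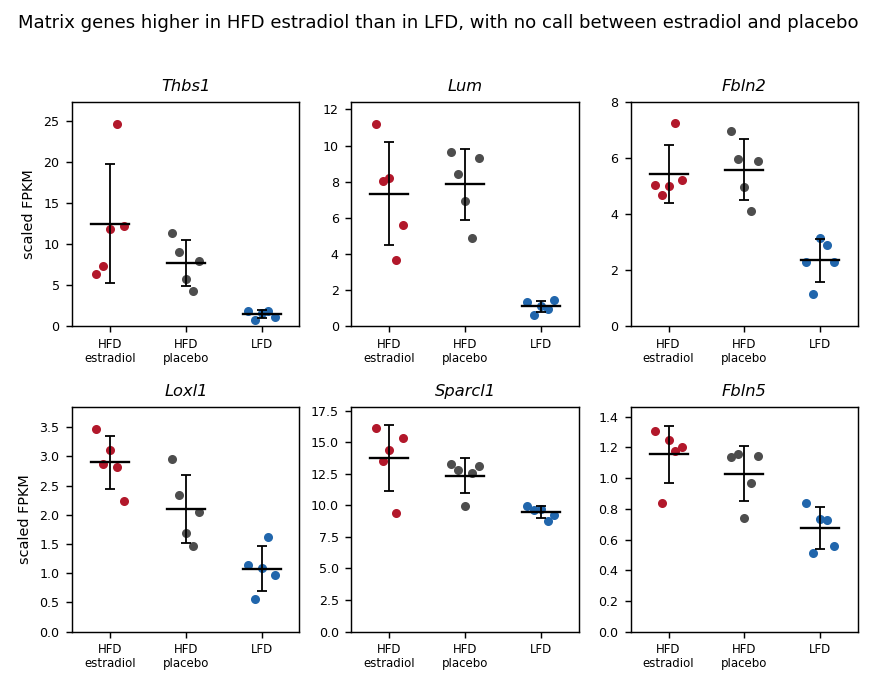
Scaled FPKM in each library for the 6 genes called higher in HFD estradiol than in LFD mice and not called between HFD estradiol and HFD placebo, with lines for the group mean and SD (n = 5 mice a group). Lum lies between 3.65 and 11.2 in HFD estradiol and between 4.87 and 9.66 in HFD placebo libraries, against 0.599 to 1.43 in LFD libraries.

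Fibrillin-1 (Fbn1), the main strand of microfibrils, averaged 7.97 ± 3.27 scaled FPKM in HFD estradiol, 7.97 ± 2.54 in HFD placebo and 5.40 ± 0.973 in LFD mice (SD, n = 5 each). It was not called in HFD placebo minus LFD (0.45 ± 0.23, limma adjusted p = 0.121), but was with lane as a term (0.69, limma adjusted p = 0.0334). Efemp2, a fibulin required for elastin crosslinking, was also called in HFD placebo minus LFD with lane as a term (0.46, limma adjusted p = 0.0305). Without HFD placebo 4 both were called in that comparison as well (0.59 for Fbn1, limma adjusted p = 0.0438, and 0.45 for Efemp2, 0.0124), and Efemp2 also without HFD estradiol 1 or LFD 5 (0.0495 and 0.0366). Fbln1, a fibulin of fibronectin and elastin networks, was not called in HFD estradiol minus LFD, but was without HFD placebo 4 (0.59, limma adjusted p = 0.0399) and with a constant sum of FPKM (0.82, limma adjusted p = 0.0117). Elastin itself (Eln) was low, between 0.464 and 1.48 over all libraries, and was not called in any comparison. Emilin1, Mfap2 and Mfap4, which are microfibril-associated proteins, were below the filter, at 0.197 to 0.793, 0.0621 to 0.620 and 0 to 0.366 scaled FPKM over all libraries.

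Of the 7 laminins and nidogens, all tested, 3 were higher and 0 lower in HFD estradiol than in HFD placebo, against 14.3% and 16.0% of all tested genes, and limma gave none of the others an unadjusted p under 0.05. Laminin α4 (Lama4), a chain of the basement membranes of adipocytes and endothelium, had 7.21, 7.75, 7.07, 7.63 and 6.96 scaled FPKM in HFD estradiol, 5.64, 5.09, 4.18, 5.34 and 5.70 in HFD placebo and 6.76, 6.33, 6.17, 5.96 and 6.61 in LFD libraries. The 3 groups did not overlap, with HFD estradiol highest and HFD placebo lowest. The difference was 0.43 ± 0.08 in HFD estradiol minus HFD placebo (limma adjusted p = 0.00046) and -0.26 ± 0.08 in HFD placebo minus LFD (limma adjusted p = 0.0125). HFD estradiol minus LFD was 0.18 ± 0.08 and not called (limma adjusted p = 0.185). The lower level in HFD placebo than in LFD depended on the scaling: it was 0.13 with a constant sum of FPKM and 0.75 with FPKM as deposited, neither called. The estradiol call was lost under the same scalings, at 0.39 (limma adjusted p = 0.219) and 0.12 (limma adjusted p = 0.9).

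Laminin β1 (Lamb1), which pairs with α chains in most basement membranes, had 5.59, 4.80, 4.85, 4.74 and 4.58 scaled FPKM in HFD estradiol, 4.29, 3.78, 3.18, 3.24 and 3.68 in HFD placebo and 3.73, 4.13, 2.91, 4.15 and 3.79 in LFD libraries. All HFD estradiol libraries were above all others. The difference was 0.35 ± 0.09 in HFD estradiol minus HFD placebo (limma adjusted p = 0.00565) and 0.32 ± 0.09 in HFD estradiol minus LFD (limma adjusted p = 0.0336). The second call was lost without HFD estradiol 1, 2, 3 or 4 or LFD 1, 3 or 5 (limma adjusted p from 0.0552 to 0.0851). It was also lost with lane as a term (0.41, limma adjusted p = 0.156).

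Nidogen-1 (Nid1), which links laminin to type IV collagen, had 19.5 to 23.5 scaled FPKM in HFD estradiol, 14.1 to 18.7 in HFD placebo and 15.8 to 21.3 in LFD libraries. The difference of HFD estradiol from HFD placebo was 0.29 ± 0.10, without overlap (limma adjusted p = 0.0359). It was -0.04 with FPKM as deposited, was not called with lane as a term (0.28, limma adjusted p = 0.201), and was lost without HFD estradiol 3, 4 or 5 or HFD placebo 3, 4 or 5 (0.0515 to 0.104). Laminin α2 (Lama2), the chain of muscle and stromal basement membranes, was called in HFD placebo minus LFD and in neither other comparison (0.42 ± 0.12, limma adjusted p = 0.00743), while its estradiol difference was -0.12 ± 0.12 (limma adjusted p = 0.45). Lamb2, Lamc1 and Nid2 were called in no comparison. Lamb2 was called lower in HFD placebo minus LFD without LFD 2 (-0.22, limma adjusted p = 0.0371), and Lamc1 was called higher there with a constant sum of FPKM (0.55, limma adjusted p = 0.0212) and with FPKM as deposited (1.16, limma adjusted p = 0.024).

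Collagen processing and crosslinking genes were the group with the most calls. In HFD placebo minus LFD 10 of 11 tested genes were higher and 0 lower, in HFD estradiol minus HFD placebo 3 were higher and 7 lower, and in HFD estradiol minus LFD 6 were higher and 0 lower. The higher shares were 90.9%, 27.3% and 54.5%, against 21.3%, 14.3% and 3.95% of all tested genes, and the lower share in HFD estradiol minus HFD placebo was 63.6%, against 16.0%. Plod2 is among the higher genes in each of these comparisons and passed the filter through HFD estradiol libraries only. In both comparisons with no lower call, 0 had a negative difference at a limma unadjusted p under 0.05. The median difference of the 11 was 0.56, -0.30 and 0.27 in these comparisons, against -0.01, 0.01 and -0.01 over all tested genes. Members of 1 enzyme family, the lysyl hydroxylases, moved in opposite directions with estradiol.

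Plod2, the lysyl hydroxylase of collagen telopeptides, whose product gives the stable hydroxylysine crosslinks of fibrotic tissue, had 1.82, 2.93, 2.61, 3.76 and 2.26 scaled FPKM in HFD estradiol libraries. It had 0.647, 0.578, 0.481, 0.456 and 0.725 in HFD placebo libraries and 0.299, 0.127, 0.316, 0.0787 and 0.150 in LFD libraries. No group overlapped another, and HFD estradiol was the highest. Plod2 passed the filter through HFD estradiol libraries only, so its inclusion among the tested genes depended on that group. The difference was 1.20 ± 0.11 in HFD estradiol minus HFD placebo (limma adjusted p = 4e-06) and 1.60 ± 0.11 in HFD estradiol minus LFD (limma adjusted p = 4.2e-07). The difference of HFD placebo from LFD was 0.40 ± 0.11 (limma adjusted p = 0.00888). As ratios of means Plod2 was 4.63-fold higher in HFD estradiol than in HFD placebo and 2.98-fold higher in HFD placebo than in LFD mice, so that the log2 scale with 1 added understates the change of so low a gene. The estradiol difference with lane as a term was 1.19 ± 0.15 (limma adjusted p = 0.000352).

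Plod1 and Plod3, which hydroxylate lysines of the collagen helix, went the other way. Plod1 had 2.5, 2.43, 2.40, 2.57 and 2.55 scaled FPKM in HFD estradiol, 3.92, 3.18, 3.00, 2.90 and 3.47 in HFD placebo and 1.93, 1.66, 1.87, 2.14 and 1.92 in LFD libraries. No group overlapped another, and HFD estradiol lay between the other two. Plod1 differed by -0.30 ± 0.07 in HFD estradiol minus HFD placebo (limma adjusted p = 0.00304), by 0.56 ± 0.07 in HFD placebo minus LFD (limma adjusted p = 8.3e-06) and by 0.27 ± 0.07 in HFD estradiol minus LFD (limma adjusted p = 0.0225). Lane as a term gave an estradiol difference of -0.26 (limma adjusted p = 0.0726), and the call against LFD was lost without HFD estradiol 4 or LFD 2 (limma adjusted p = 0.0521 and 0.0597).

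Plod3, which also adds sugars to hydroxylysine, had 2.01, 2.3, 2.55, 1.99 and 2.23 scaled FPKM in HFD estradiol, 3.38, 3.33, 2.99, 3.18 and 3.37 in HFD placebo and 2.42, 2.47, 3.37, 2.17 and 2.17 in LFD libraries. HFD estradiol libraries were all below the HFD placebo libraries, and LFD 3 alone among LFD libraries lay among the HFD placebo libraries. The difference was -0.40 ± 0.08 in HFD estradiol minus HFD placebo (limma adjusted p = 0.00151) and was called with lane as a term (-0.41, limma adjusted p = 0.0256). HFD placebo minus LFD was 0.28 ± 0.08 (limma adjusted p = 0.0118), with overlap. Plod3 overlaps Znhit1, at a mean of 2.18 scaled FPKM against 2.66 for Plod3, and no source used here says how reads shared by the pair were assigned.

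The lysyl oxidases oxidise lysine in collagen and elastin to start crosslinks. All 3 tested were higher in HFD placebo than in LFD mice, against 21.3% of all tested genes. With estradiol Lox and Loxl2 were called lower, against 16.0% of all tested genes, while Loxl1 was not called. The Loxl2 call was lost in most fits that left out 1 library. Loxl3 was below the filter, at 0.180 to 0.685 scaled FPKM over all libraries. Lox had 2.68, 2.18, 2.43, 1.80 and 2.07 scaled FPKM in HFD estradiol, 5.77, 4.20, 2.8, 4.25 and 4.83 in HFD placebo and 2.04, 1.46, 2.75, 2.13 and 1.92 in LFD libraries. HFD placebo libraries were above all others, and HFD placebo 3 was nearest to them. Lox fell by 0.71 ± 0.14 with estradiol (limma adjusted p = 0.00093), was 0.80 ± 0.14 higher in HFD placebo than in LFD mice (limma adjusted p = 0.00021), and differed by 0.09 ± 0.14 in HFD estradiol minus LFD (limma adjusted p = 0.759). With lane as a term the estradiol difference was -0.78 (limma adjusted p = 0.0122).

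Loxl1, the family member needed for elastic fibres, had 2.23 to 3.48 scaled FPKM in HFD estradiol, 1.46 to 2.95 in HFD placebo and 0.556 to 1.63 in LFD libraries. It was called against LFD in HFD estradiol (0.92 ± 0.14, limma adjusted p = 0.00084) and in HFD placebo (0.58 ± 0.14, limma adjusted p = 0.00323). Its estradiol difference, 0.34 ± 0.14, was not called (limma adjusted p = 0.0748), though it was within lane 6 (0.50, limma adjusted p = 0.0444) and without HFD estradiol 5 (0.41, 0.0482), HFD placebo 1 (0.44, 0.0252) or LFD 2 (0.34, 0.046). Loxl2, which acts on type IV collagen, had 1.08 to 1.70 in HFD estradiol, 1.26 to 3.04 in HFD placebo and 0.828 to 1.41 in LFD libraries. Its difference was -0.35 ± 0.13 in HFD estradiol minus HFD placebo (limma adjusted p = 0.0467), with overlap. That call held in only 4 of 15 fits that left out 1 library, those without HFD estradiol 1, HFD placebo 4 or LFD 2 or 4, and was lost with lane as a term (-0.15, limma adjusted p = 0.604).

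Transglutaminase 2 (Tgm2), which joins glutamine and lysine side chains, had 8.53, 18.1, 14.7, 31.8 and 12.1 scaled FPKM in HFD estradiol, 7.64, 7.62, 8.98, 7.59 and 8.03 in HFD placebo and 5.72, 4.83, 6.15, 5.09 and 5.25 in LFD libraries. HFD estradiol 1 lay within the HFD placebo range, HFD estradiol 4 stood highest, and all HFD placebo libraries were above all LFD libraries. Tgm2 averaged 17.0 ± 8.95 in HFD estradiol and 7.97 ± 0.592 in HFD placebo mice (SD, n = 5 each), a difference of 0.88 ± 0.22 (limma adjusted p = 0.00702). Against LFD mice, at 5.41 ± 0.526 (SD, n = 5), HFD estradiol gave 1.37 ± 0.22 (limma adjusted p = 0.0016) and HFD placebo 0.49 ± 0.22 (limma adjusted p = 0.0912). The HFD placebo difference passed when only those 2 groups were fitted (limma adjusted p = 0.000726) and without HFD estradiol 1 or 4 (0.0387 and 0.0128), since the spread is otherwise shared with the HFD estradiol libraries. With lane as a term the estradiol difference was 0.91 (limma adjusted p = 0.0666). The difference of HFD estradiol from LFD was then 1.41 and not called either (limma adjusted p = 0.0714).

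The procollagen C-proteinase enhancers, which speed the removal of the collagen propeptide, had estradiol differences of opposite sign. Pcolce had 4.44, 3.67, 3.28, 2.57 and 2.57 scaled FPKM in HFD estradiol, 7.13, 5.77, 4.31, 4.27 and 6.21 in HFD placebo and 2.23, 1.09, 1.83, 2.10 and 1.13 in LFD libraries. HFD estradiol 1 reached the lower HFD placebo libraries, and both fat-fed groups lay above all LFD libraries. Pcolce differed by -0.60 ± 0.16 in HFD estradiol minus HFD placebo (limma adjusted p = 0.00945), by 1.29 ± 0.16 in HFD placebo minus LFD (limma adjusted p = 1.2e-05) and by 0.69 ± 0.16 in HFD estradiol minus LFD (limma adjusted p = 0.0157).

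Pcolce2 had 4.05, 3.45, 3.88, 3.08 and 4.31 scaled FPKM in HFD estradiol, 2.94, 2.81, 2.22, 2.81 and 2.88 in HFD placebo and 1.35, 1.03, 1.33, 1.47 and 1.07 in LFD libraries. The 3 groups did not overlap, in the order HFD estradiol, HFD placebo, LFD from high to low. It differed by 0.35 ± 0.08 in HFD estradiol minus HFD placebo (limma adjusted p = 0.00502), by 0.73 ± 0.08 in HFD placebo minus LFD (limma adjusted p = 5.9e-06) and by 1.08 ± 0.08 in HFD estradiol minus LFD (limma adjusted p = 1.3e-06). With lane as a term neither estradiol difference was called, at -0.54 for Pcolce (limma adjusted p = 0.129) and 0.30 for Pcolce2 (limma adjusted p = 0.099). In HFD estradiol minus LFD that term left Pcolce2 called and Pcolce not called (0.80, limma adjusted p = 0.138).

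Serpinh1, the collagen chaperone of the endoplasmic reticulum, had 12.9 to 21.3 scaled FPKM in HFD estradiol, 20.6 to 27.9 in HFD placebo and 13.7 to 22.3 in LFD libraries. P4hb, the β subunit of collagen prolyl hydroxylase and a general disulfide isomerase, had 10.4 to 11.5 in HFD estradiol, 11.4 to 15.2 in HFD placebo and 7.28 to 10.2 in LFD libraries. Both were lower with estradiol than with placebo, each with overlap, at -0.46 ± 0.15 for Serpinh1 (limma adjusted p = 0.0274) and -0.29 ± 0.10 for P4hb (limma adjusted p = 0.0301). The Serpinh1 call was lost without HFD estradiol 1 or 5 or HFD placebo 1, 2 or 5 (limma adjusted p from 0.0513 to 0.0632), and the P4hb call without HFD estradiol 3 or 4 or HFD placebo 1, 2, 3 or 5 (0.0506 to 0.0774). With lane as a term neither was called, at -0.48 for Serpinh1 (limma adjusted p = 0.141) and -0.18 for P4hb (limma adjusted p = 0.384), and Serpinh1 was not called without HFD placebo 4 and 5 (-0.44, limma adjusted p = 0.0779). Against LFD the HFD placebo differences were 0.57 ± 0.15 (Serpinh1, limma adjusted p = 0.00536) and 0.55 ± 0.10 (P4hb, limma adjusted p = 0.00025).

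**Figure D4:**
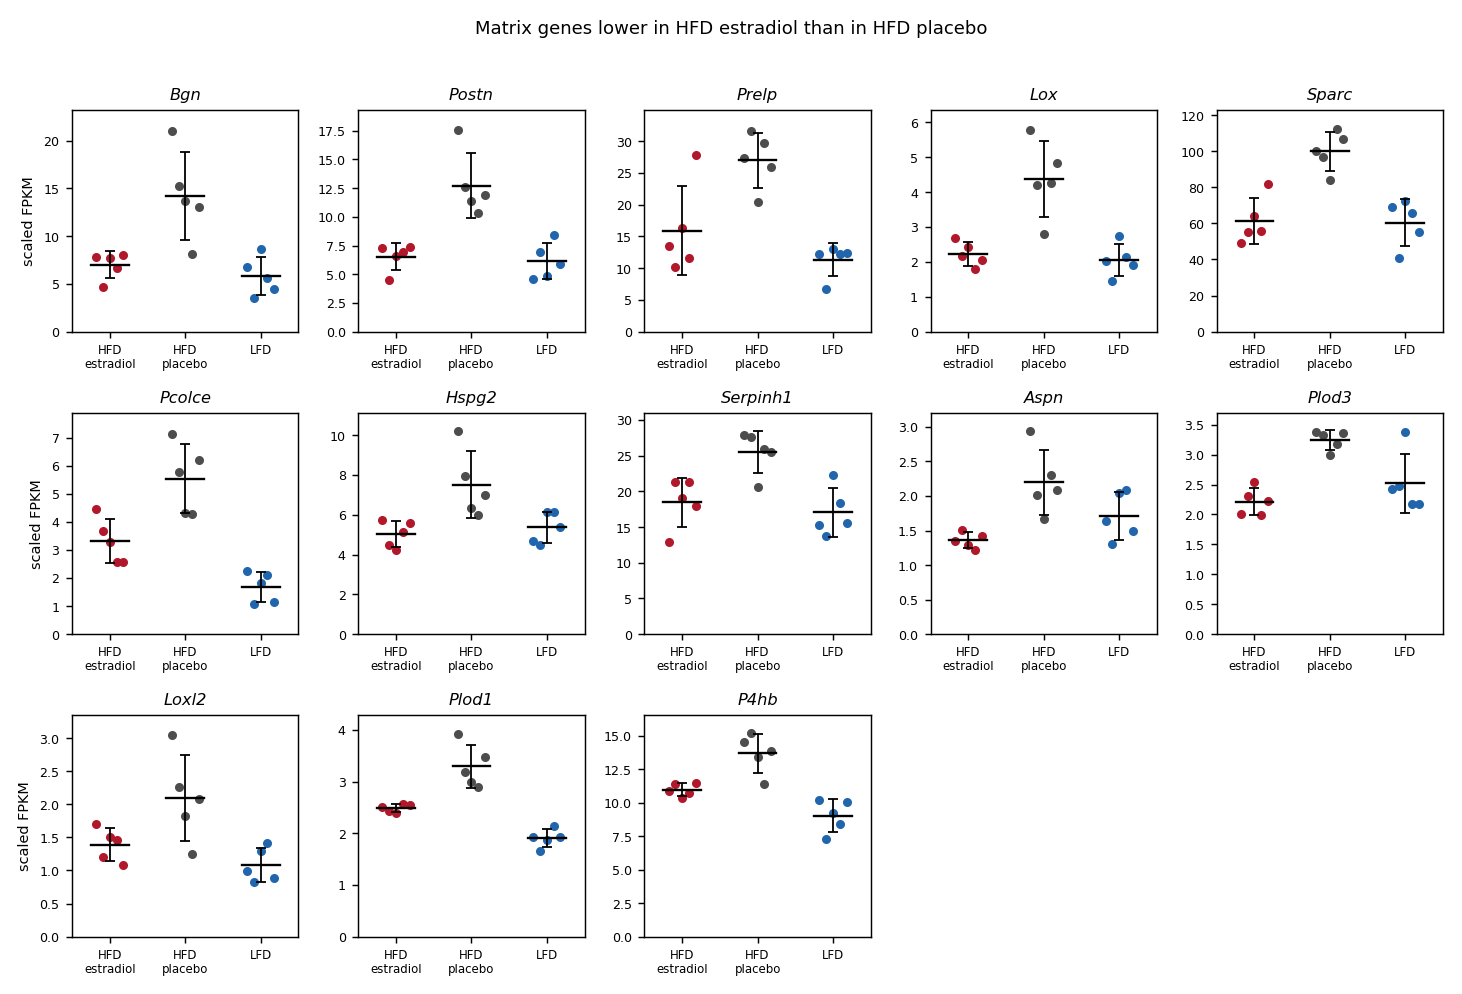
Scaled FPKM in each library for the 13 genes called lower in HFD estradiol than in HFD placebo, with lines for the group mean and SD (n = 5 mice a group). HFD estradiol libraries of Postn lie between 4.46 and 7.40, below the HFD placebo libraries at 10.3 to 17.5 and among the LFD libraries at 4.63 to 8.40.

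HFD placebo was the only group on both lanes. With lane as a term, 11 of the 22 calls in HFD estradiol minus HFD placebo held and none was added, while of all tested genes 5.65% were higher and 7.02% lower, against 14.3% and 16.0% without it. The 6 higher were Spon1, Plod2, Ogn, Lama4, Lamb1 and Thbs2, and the 5 lower were Aspn, Lox, Plod3, Postn and Sparc. Within lane 6, with 5 HFD estradiol libraries and HFD placebo 4 and 5, the same 5 were lower and 7 were higher, Loxl1 being the addition, against 5.33% and 6.80% of all tested genes higher and lower. Without HFD placebo 4 and 5, an alternative added after the values were seen, 8 were higher and 11 lower, against 13.6% and 16.0% of all tested genes. In HFD placebo minus LFD lane as a term gave 24 higher and 1 lower, against 21.2% and 20.7% of all tested genes, with Fbn1 and Efemp2 added and Sparcl1 (0.30, limma adjusted p = 0.0986) and Fmod (-0.43, limma adjusted p = 0.132) lost. Lane and group cannot be told apart in HFD estradiol minus LFD except through the HFD placebo libraries, and lane as a term left 8 higher calls there (Fbln2, Loxl1, Lum, Pcolce2, Plod2, Spon1, Thbs1 and Thbs2), against 1.66% of all tested genes. The higher calls of Fbln5, Lamb1, Ogn, Pcolce, Plod1, Sparcl1 and Tgm2 and the lower call of Fmod were lost there (limma adjusted p from 0.0714 to 0.56).

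**Figure D5:**
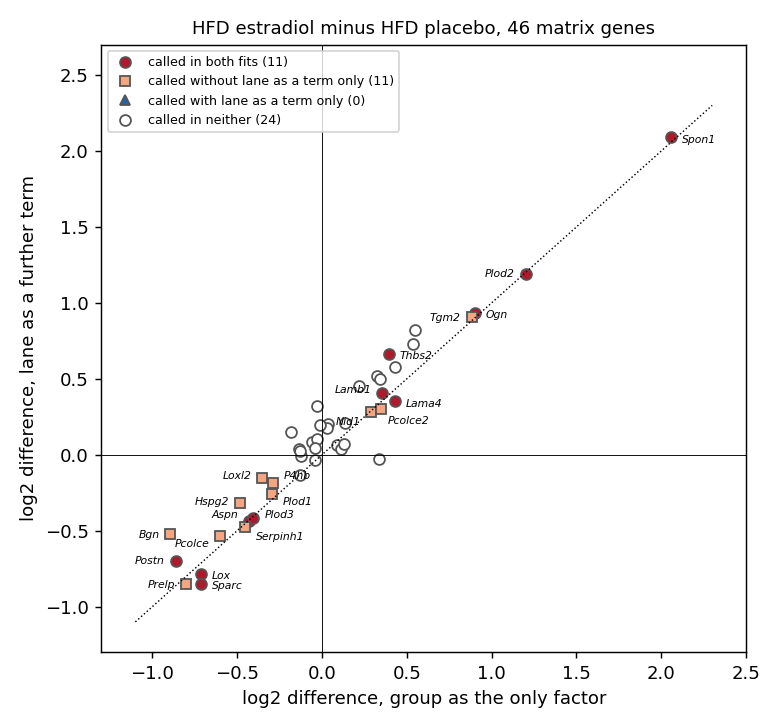
Difference in log2(scaled FPKM + 1) between HFD estradiol and HFD placebo for the 46 tested genes with lane as a further term (vertical) against the difference with group as the only factor (horizontal), and a dotted line of equality. Filled circles are the 11 genes called in both fits, with Spon1 at 2.09 and 2.06, and squares the 11 called only without lane.

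Markers of some other cell types moved with the same groups. In HFD estradiol minus HFD placebo 14.3% of all tested genes were higher and 16.0% lower, and in HFD placebo minus LFD 21.3% and 22.0%. The 12 macrophage markers summed to 58.6 to 180 scaled FPKM in HFD estradiol, 203 to 558 in HFD placebo and 44.7 to 112 in LFD libraries, and 11 of 12 were lower in HFD estradiol than in HFD placebo, while all 12 were higher in HFD placebo than in LFD. The 8 adipocyte markers moved oppositely, with 7 higher in HFD estradiol than in HFD placebo and all 8 lower in HFD placebo than in LFD. Fibroblast and progenitor markers summed to 47.4 to 69.9 in HFD estradiol, 35.2 to 60.9 in HFD placebo and 32.6 to 43.6 in LFD libraries, with 4 of 9 tested higher in HFD estradiol than in HFD placebo (Pi16, Cd34, Dpp4 and Cd248) and Pdgfrb lower. In HFD placebo libraries 1 to 5 the macrophage markers summed to 347, 387, 558, 203 and 341. The 56 genes summed to 583, 535, 393, 431 and 530 there. Dcn and Sparc, with means of 85.1 and 73.9 over all libraries, weigh most in the second sum. Of 8 endothelial markers, 1 was higher and 0 lower in HFD estradiol than in HFD placebo. In HFD placebo, 3 of the 8 were lower than in LFD and 0 higher. Of 6 tested smooth muscle and pericyte markers, 1 was higher and 1 lower in each of these comparisons. Of 2 tested mesothelial markers, 0 were called between HFD estradiol and HFD placebo, and 1 was lower in HFD placebo than in LFD. The part of these markers in the differences above was not tested.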

How the data were processed

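Periprostatic fat of 15 mice was profiled by RNA sequencing. Per the labels' protocols, stranded Illumina libraries were made after removal of ribosomal RNA from samples whose RNA integrity number exceeded 7. Per the submitters' processing notes, STAR and Cufflinks were used with mm10; their versions, the annotation and the strand setting are not given in the sources used here. Each library has 1 file of FPKM by gene symbol, made by the authors, whose name gives the sequencing lane.

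FPKM were divided by median-of-ratios factors over 5874 genes above 0 in all libraries with a mean FPKM of at least 1. Genes at 1 or more in at least 5 libraries (5615) were tested as log2(scaled FPKM + 1) with limma 3.58.1 (trend and robust) in R 4.3.3, group as the only factor, all 15 libraries in 1 fit, and Benjamini-Hochberg adjustment within each comparison. The procedure was tested on simulated data. Groups and replicate numbers come from the labels; the numbers name different animals. No 2 libraries were identical, and within-group correlations of log2 values ran from 0.927 to 0.979. Counts were not used; depth was estimated from the spacing of low FPKM values, of which 59.9% to 70.7% lay within 2% of a whole multiple, and gives no interval for single values.

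The genes and comparison lists were chosen with earlier results of these data known. Values in each library or group ranges are given for genes called in HFD estradiol minus HFD placebo, for the 3 of each role with the smallest adjusted p in HFD placebo minus LFD, and for those called in HFD estradiol minus LFD without overlap. Alternatives were the scaling, pseudocount, filter, moderation, lane, fitted groups, a replicate block, and leaving out each library. Promoters and positions are RefSeq, GRCm38.p6.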

Additional observations from a re-analysis of the deposited data

Results flagged for a closer look

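Of 138 groups of 5 libraries examined, 1 for each tested gene and group, 11 held a value standing apart, where the gap to the nearest other library exceeded 0.71 of the group's range. Chance flags about 1 in 20 groups. Within HFD estradiol, Postn (periostin) was 4.46 scaled FPKM in library 2, against 6.58 to 7.40 in the others. Fbln5 was 0.839 in library 2, against 1.18 to 1.3. Library 1 was high for Tnxb, at 7.31 against 3.85 to 4.46, for Emilin2, an elastic fibre glycoprotein, at 4.16 against 2.62 to 2.84, and for Lamb1, at 5.59 against 4.58 to 4.85. Fbln2 was 7.26 in library 4, against 4.69 to 5.21.

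Within HFD placebo, library 3 was low for Sparcl1, at 9.91 against 12.6 to 13.3, and for Pcolce2, at 2.22 against 2.81 to 2.94. Within LFD, library 2 was low for Dcn, at 46.4 against 72.5 to 80.2, and for Prelp, at 6.68 against 12.2 to 13. Plod3 was 3.37 in LFD 3, against 2.17 to 2.47.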

How the results depend on the processing

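In HFD placebo minus LFD, 23 higher and 2 lower calls became 37 and 0 with FPKM as deposited (median 1.22). Rescaled to a constant sum they became 29 and 0 (median 0.69). Of all 5615 tested genes, 3009 and 2104 were higher in these fits, in this order, against 1197 as reported. The lower count was 1 without the filter, at a mean of at least 2, with lane as a term, within 1 lane, with 2 groups fitted, and without HFD placebo 4 and 5. In HFD estradiol minus HFD placebo, 9 higher and 13 lower calls became 2 and 0 as deposited (median -0.27), 4 and 9 rescaled, 6 and 5 with lane as a term, and 7 and 5 within lane 6. In HFD estradiol minus LFD, 15 higher and 1 lower became 9 and 0 as deposited (median 0.90) and 24 and 0 rescaled (median 0.57). With lane as a term they became 8 and 0. Of all tested genes, 39, 554 and 93 were higher in these fits, in this order, against 222 as reported. The lower count was also 0 at a pseudocount of 0.1, without the filter, and at a mean of at least 2.

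Leaving out 1 library gave 21 to 27 higher and 1 to 3 lower in HFD placebo minus LFD, 7 to 10 and 10 to 13 in HFD estradiol minus HFD placebo, and 13 to 17 and 0 to 1 in HFD estradiol minus LFD. Of genes called under either scaling, directions reversed as deposited for Dpt (1.09), Fmod (0.014), Lama4 (0.75) and Lamb1 (0.89) in HFD placebo minus LFD and for Nid1 (-0.043) in HFD estradiol minus HFD placebo, and rescaled for Lama4 (0.13), with the sign changes of uncalled genes not listed; the cause was not tested. The replicate block gave 22 higher and 2 lower in HFD placebo minus LFD, 7 and 12 in HFD estradiol minus HFD placebo, and 16 and 1 in HFD estradiol minus LFD. Same-numbered deviations correlated from -0.21 to 0.36, with 5 of 15 pairs above 0.1. A library's best match in another group had the same number in 6 of 30 cases. These values cannot settle whether same-numbered animals were paired. Removing HFD placebo 4 and 5 was chosen after seeing the data. Depth limits the low genes most in LFD libraries.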

Other observations

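Other matrix genes outside the set moved with it in part. Of 14 tested collagens, 13 were higher in HFD placebo than in LFD, with a median difference of 0.85, and 10 were lower and 1 higher in HFD estradiol than in HFD placebo, with a median of -0.55. Of all tested genes 21.3% were higher in HFD placebo than in LFD, and 16.0% lower and 14.3% higher in HFD estradiol than in HFD placebo. Col3a1, a fibrillar collagen, averaged 24.6 scaled FPKM in HFD estradiol and 56.1 in HFD placebo mice (difference -1.13 ± 0.19, limma adjusted p = 0.00035). Col14a1, which binds fibril surfaces, was the exception at 2.66 in HFD estradiol and 1.60 in HFD placebo mice (0.49 ± 0.16, limma adjusted p = 0.0271).

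Of 44 matrix modifiers and binding partners, 15 were tested, with 3 higher and 2 lower in HFD estradiol than in HFD placebo, or 20% and 13.3%, near the 14.3% and 16.0% of all tested genes. Smoc1, a relative of Sparc found in basement membranes, averaged 5.99 scaled FPKM in HFD estradiol and 1.73 in HFD placebo mice (1.35 ± 0.13, limma adjusted p = 5e-06), and 4.58 in LFD mice. Mfge8, a secreted bridging protein for apoptotic cells, averaged 8.12 in HFD estradiol and 22.4 in HFD placebo mice (-1.34 ± 0.13, limma adjusted p = 4e-06). Podn, a small leucine-rich proteoglycan outside the set, was lower in HFD estradiol, at 2.03, than in LFD mice, at 4.61 (-0.89 ± 0.13, limma adjusted p = 0.0008). Fstl1, a secreted glycoprotein of stromal cells, was higher in HFD estradiol than in LFD mice, which averaged 4.94 (0.95 ± 0.14, limma adjusted p = 0.00075).

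Among genes of the set below the filter, limma without the filter called Emilin1, Loxl3, Mfap2 and Tnc higher in HFD placebo than in LFD, and Emilin1 and Spon2 higher in HFD estradiol than in LFD. Of all 18880 genes in that fit 11% and 1.13% were higher in these comparisons.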
